A study of Homo sapiens with 208 samples.

Results

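The ERBB ligands are the secreted or membrane-anchored growth factors that activate the epidermal growth factor receptor family. The 9 followed here are AREG, EREG, HBEGF, TGFA, BTC, EPGN, EGF, NRG1 and NRG2, chosen as members of 1 gene family. A probe belonged to a member when the transcript accession printed on the array for it is one that RefSeq assigns to that gene, which gave 16 probes for the 9 genes, out of 16961 genes with a matched probe. Of these genes 13261 passed a filter on dim signal and were tested, and 6 ligands were among them (AREG, EREG, HBEGF, TGFA, BTC and EGF), whereas EPGN, NRG1 and NRG2 did not pass it on the probe that was read.

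RNA was measured on single-colour 44K Agilent arrays in 8 time courses of 26 arrays each. PC9 is a human lung adenocarcinoma line that carries an activating EGFR deletion and is sensitive to gefitinib, an inhibitor of the EGFR kinase. PC9M2, spelled PC9GRM2 in the sample labels, is a clone of PC9 obtained after exposure to gefitinib, in which the T790M mutation and MET amplification were not found, so that it stands for 1 resistant clone and not for resistance in general. Cells of each line were starved of serum for 48 h, and then left untreated, given 0.5 µM gefitinib from 2 h before time 0, given 100 ng/ml EGF at time 0, or given both. Each course has 26 time points (0 h, 0.5 h and every hour from 1 to 24 h) with 1 array at each and no replicate, so the time points stand in for replicates, SDs and SEs describe the spread over time points, and p-values measure that spread and not the spread between cultures. The 4 treatments of a line at a time point lay together on each of the 52 slides. Between the lines 0 slides and 0 scan days were in common (8 scan days for PC9, 9 for PC9M2), so line and scan period cannot be told apart. All levels are log2 signals after quantile normalization, a step that gives every array the same distribution of values, and levels of different probes are not comparable with each other.

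ERBB ligands are made as membrane precursors, cut loose by ADAM proteases, and bind EGFR (AREG, TGFA, EGF, EPGN), EGFR and ERBB4 (HBEGF, BTC, EREG) or ERBB3 and ERBB4 (NRG1, NRG2). The bound receptor dimers signal through RAS and ERK, and several ligand genes are themselves switched on by ERK, so that an epithelial cell can stimulate itself and its neighbours. EPGN, EREG, AREG and BTC lie near each other on chromosome 4, which also carries EGF. HBEGF and NRG2 are on chromosome 5, and TGFA is on chromosome 2.

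The arrays measured RNA levels and not promoter activity, and the promoters of the 4 ligands that moved most with treatment are shown for reference. They are the 250 bases before the RefSeq transcription start in GRCh38.p14, read 5′ to 3′ on the gene's strand, with matches to an AP-1 site (TGANTCA), a cyclic AMP response element (CRE, TGACGTCA) and a TATA box (TATAAA) in capitals.
AREG, chr4:74444886-74445135, plus strand: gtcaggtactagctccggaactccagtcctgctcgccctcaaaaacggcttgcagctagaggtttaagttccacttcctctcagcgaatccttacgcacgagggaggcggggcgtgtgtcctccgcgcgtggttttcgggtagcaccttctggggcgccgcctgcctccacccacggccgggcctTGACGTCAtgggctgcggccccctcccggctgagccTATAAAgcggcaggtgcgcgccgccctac
EREG, chr4:74364895-74365144, plus strand: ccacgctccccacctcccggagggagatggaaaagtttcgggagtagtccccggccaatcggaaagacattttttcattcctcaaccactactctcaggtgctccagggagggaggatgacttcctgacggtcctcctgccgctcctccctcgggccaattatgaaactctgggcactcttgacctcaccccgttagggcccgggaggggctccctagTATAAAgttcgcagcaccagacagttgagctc
HBEGF, chr5:140346604-140346853, minus strand: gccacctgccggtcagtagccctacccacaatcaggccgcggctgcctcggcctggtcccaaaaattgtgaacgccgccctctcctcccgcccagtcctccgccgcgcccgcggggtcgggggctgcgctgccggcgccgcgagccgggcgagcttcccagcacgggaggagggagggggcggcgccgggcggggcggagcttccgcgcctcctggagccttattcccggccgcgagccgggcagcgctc
TGFA, chr2:70553827-70554076, minus strand: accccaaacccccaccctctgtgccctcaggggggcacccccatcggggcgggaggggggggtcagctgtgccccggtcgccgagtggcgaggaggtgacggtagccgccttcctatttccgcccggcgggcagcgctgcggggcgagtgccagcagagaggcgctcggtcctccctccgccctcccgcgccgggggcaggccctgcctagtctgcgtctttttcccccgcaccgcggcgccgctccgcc

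AREG held a CRE at bases -65 to -58 from its start and a TATA box at -29 to -24, and EREG a TATA box at -32 to -27. HBEGF and TGFA held neither. The GC box (GGGCGG, not in capitals) had 5 matches in HBEGF, of which a pair overlap by a base, 3 in TGFA, 1 in AREG and 0 in EREG. RefSeq lists another start for TGFA, whose window is not shown and held 0 matches to these motifs. Among all 35116 RefSeq promoters of the same length, searched on both strands, 1.65% held the CRE, 10.7% the TATA box, 42.6% the GC box, 6.57% the AP-1 motif and 1.16% the CArG box bound by SRF. None of these 4 windows held the AP-1 motif or the CArG box. The EGF promoter held an AP-1 match at -17 to -11. A match is a run of letters and not a measured binding site.

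A pair of arrays went against their labels. In PC9M2 at 0.5 h, the array labelled EGF had the low ligand signals of the gefitinib courses and the array labelled EGF and gefitinib had the high signals of the courses without the drug. AREG was 8.26 on the former, against 10.1 to 11.6 on the other 25 arrays of the EGF course, and 10.8 on the latter, against 7.74 to 9.30 on the other 25 arrays of the EGF and gefitinib course. DUSP6, an ERK phosphatase that ERK signaling induces, was higher by 4.79 with gefitinib at this point and lower by between 2.15 and 4.79 at the other 25. Over all tested genes, the difference between these 2 arrays correlated with the mean difference of the other time points at r = -0.39, against 0.24 to 0.92 at the other points. Both arrays were kept under their labels, and values without the 0.5 h arrays are given for many, but not all, of the comparisons that use them.

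AREG (amphiregulin) and TGFA (transforming growth factor alpha) were well above background on all arrays and HBEGF (heparin-binding EGF-like growth factor) on all but 1. EGF was above background on 192 arrays. HBEGF, EREG (epiregulin) and BTC (betacellulin) each had 2 probes, and the tests were made on the more variable. For HBEGF this was the brighter of the pair, and the other was above background on 206 arrays. For EREG and BTC it was the dimmer, above background on 72 arrays for EREG and on 167 for BTC. Results on the other probe stand beside it in several comparisons. All 6 epithelial markers looked at were above background on every array, and 0 of 5 fibroblast markers passed the filter. Of 3 lung lineage markers 2 passed it. NAPSA was above background on 103 arrays of PC9 and 104 of PC9M2, and SFTPB on 46 and 43. NKX2-1, a transcription factor of the lung lineage, was above background on 13 arrays. Of markers of other cell types, 3 of 4 leukocyte genes and 2 of 3 endothelial genes passed the filter, although the defining PTPRC of leukocytes was above background on 1 array and the endothelial CDH5 on 34. Under gefitinib without EGF 72.2% of all tested genes were called in PC9 (34.8% higher) and 66.5% in PC9M2 (32.5% higher). In this comparison 1 leukocyte marker was called higher in PC9 and 2 in PC9M2, and of the endothelial markers 1 was higher and 1 lower in PC9 and 2 were higher in PC9M2. Their part in the ligand results was not tested.

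The first comparison asked how the ligands respond to EGFR inhibition. Gefitinib lowered AREG, EREG, HBEGF and TGFA in both lines, with and without EGF, and left BTC without a called change on its tested probe. HBEGF fell most and TGFA least in each of the 4 comparisons when the 0.5 h arrays were left out or kept. The share of all tested genes called lower was 37.4% in PC9 without EGF, 40.0% in PC9 with EGF, 34.0% in PC9M2 without EGF and 38.0% in PC9M2 with EGF, against 4 of the 6 tested ligands in each.

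HBEGF, a ligand that stays active while anchored in the membrane, had in untreated PC9 a lowest, median and highest signal of 9.44, 10.1 and 11.1. Under gefitinib in PC9 these were 4.08, 6.75 and 9.03. The courses did not overlap on this tested probe, and the gefitinib signal went down through the course from its highest value at 0 h. The paired difference was -3.20 (SE 0.20, n = 26 time points), a 9.21-fold lower signal, lower at 26 of 26 points, with a limma adjusted p of 6.15e-14. With EGF present the PC9 signal was 11.6-fold lower (difference -3.54, SE 0.18). On the other HBEGF probe the PC9 courses without EGF overlapped in part, with an untreated lowest of 8.38 and a gefitinib highest of 8.59. The drug value was lower at 26 of 26 points. Course means on that probe were 9.26 untreated and 6.83 under gefitinib, and 9.88 and 6.79 with EGF.

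In PC9M2, untreated HBEGF ran from 7.53 through a median of 9.23 to 10.8. Under gefitinib it ran from 6.16 through 7.16 to 7.69, so that the courses touched although the drug value was lower at each of 26 points. The difference was -2.09 (SE 0.14, 4.27-fold, adjusted p 7.31e-13). With EGF it was -2.96 (SE 0.23), and -3.17 (SE 0.11) without the 0.5 h arrays. On the other probe, without the 0.5 h arrays, the differences were -1.80 (SD 0.75 over 25 points) without EGF and -2.60 (SD 0.64) with it.

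AREG, a ligand of EGFR alone, had in untreated PC9 a lowest, median and highest signal of 8.75, 9.57 and 10.2. Under gefitinib it had 6.38, 7.10 and 8.31, with 1 array left out because its spot was marked as an outlier. The highest drug value, at 0 h, lay below the lowest untreated value. The difference was -2.40 (SE 0.11, 5.29-fold, lower at 25 of 25 points, adjusted p 5.05e-16), and with EGF it was -2.94 (SE 0.10).

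In PC9M2 the untreated AREG values were 9.56, 10.2 and 11.0 and those under gefitinib 7.58, 8.71 and 9.83, so the courses overlapped in part. The difference was -1.49 (SE 0.10, 2.82-fold, lower at 26 of 26 points, adjusted p 2.3e-13). With EGF it was -2.28 (SE 0.20), and -2.47 (SE 0.08, 5.53-fold) without the 0.5 h arrays.

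TGFA, another EGFR-only ligand, had untreated PC9 values of 8.66, 9.73 and 10.7 and gefitinib values of 6.84, 8.34 and 9.12. These courses overlap, both going down and up again over the day, and the drug value was lower at every one of 26 points. The difference was -1.47 (SE 0.07, 2.77-fold, adjusted p 4.6e-16) without EGF and -1.58 (SE 0.06) with it. In PC9M2 it was -1.08 (SE 0.10, lower at 25 of 26 points, adjusted p 5.03e-10) without EGF and -1.31 (SE 0.15) with it, or -1.42 (SE 0.12) without the 0.5 h arrays.

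EREG was followed best on its brighter probe, which was above background on all but 2 arrays. On it, untreated PC9 had a lowest, median and highest signal of 6.89, 7.26 and 8.79, and gefitinib-treated PC9 4.38, 5.74 and 6.76, without overlap. The paired difference on this probe was -1.87 (SE 0.15, 3.66-fold, adjusted p 9.4e-12) in PC9 and -1.21 (SE 0.12, 2.32-fold, adjusted p 4.01e-10) in PC9M2, and with EGF -2.14 (SE 0.11) and -1.66 (SE 0.19). The last of these was -1.83 (SD 0.60 over 25 points) without the 0.5 h arrays. On the dimmer probe the 4 differences were -1.74, -1.55, -2.39 and -1.61 in the same order, the last -1.80 without the 0.5 h arrays. That probe was above background on 5 of 26 arrays of PC9 under gefitinib and on 1 of 26 in PC9M2, so its treated values lie mostly at the level of the background.

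**Figure D1:**
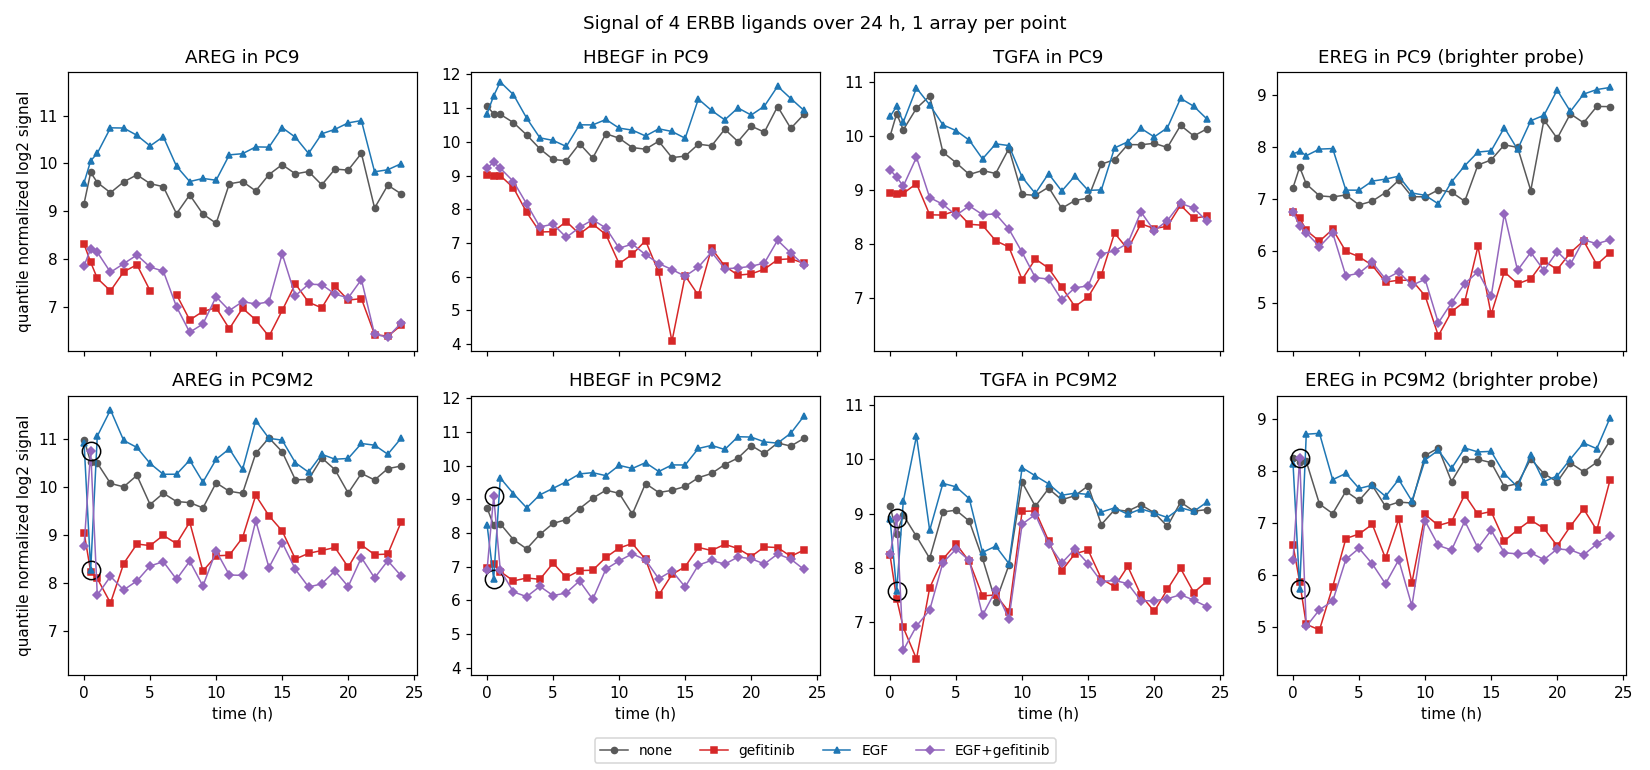
Quantile normalized log2 signal (vertical axis) of AREG, HBEGF, TGFA and the brighter EREG probe against time in hours, 1 point per array, PC9 above and PC9M2 below, with untreated (grey), gefitinib (red), EGF (blue) and EGF with gefitinib (purple) courses. At matched times each drug array lies below its array without drug, apart from TGFA in PC9M2 without EGF at 8 h and the circled pair of PC9M2 arrays at 0.5 h, whose values are in each other's place (AREG 8.26 on the array labelled EGF and 10.8 on the array labelled EGF and gefitinib).

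EGF and BTC stood apart from these 4. EGF was higher with gefitinib in PC9, by 0.19 (SE 0.08, adjusted p 0.0392, higher at 16 of 26 points) without added EGF and by 0.28 (SE 0.08, adjusted p 0.00307, higher at 19 of 26 points) with it. The first of these calls was lost without the 11 h arrays (adjusted p 0.0613). In PC9M2 the difference was 0.02 (SE 0.11, adjusted p 0.891) without EGF. From 4 to 12 h the mean difference without EGF was 0.50 (SD 0.43) in PC9 and 0.40 (SD 0.78) in PC9M2, and with EGF 0.62 and 0.24. From 13 to 24 h it was -0.0003 (SD 0.28) and -0.24 (SD 0.23), and with EGF 0.05 and -0.05. BTC differed on its dimmer probe by -0.04 (SE 0.10, adjusted p 0.704) in PC9 and by 0.20 (SE 0.13, adjusted p 0.167) in PC9M2. On its brighter probe, without the 0.5 h arrays, the PC9M2 difference was 0.17 (SD 0.36 over 25 points) without EGF and 0.20 (SD 0.30) with it. The median difference over the 6 tested ligands was -1.61 in PC9 and -1.28 in PC9M2, beside medians of -0.03 and -0.01 over all tested genes.

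Since the arrays were scanned over several days, the gefitinib differences were averaged within each scan day. AREG, EREG, HBEGF and TGFA were lower with the drug on each of the 8 days of PC9 and each of the 9 days of PC9M2, with and without EGF. The highest daily mean of AREG without EGF was -1.70 in PC9 and -0.87 in PC9M2.

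The next comparison asked whether the drug lowered the ligands as much in the resistant clone. The difference between the gefitinib effects of the lines, PC9M2 minus PC9 at matched times, was called for 3 of 6 ligands without EGF, where 34.1% of all tested genes were called. HBEGF was lowered less in PC9M2 by 1.11 (SE 0.14, adjusted p 5.51e-07, at 25 of 26 points). On its other probe, without the 0.5 h arrays, the value was 0.67 (SD 0.70 over 25 points), against 1.13 (SD 0.74) on the tested probe. AREG was lowered less by 0.89 (SE 0.16, adjusted p 9.96e-05, at 21 of 25 points) and TGFA by 0.40 (SE 0.12, adjusted p 0.0109, at 21 of 26 points). EREG differed by 0.19 (adjusted p 0.682) on the dimmer probe, and by 0.66 (SE 0.22, adjusted p 0.0199) on the brighter. On the brighter BTC probe, without the 0.5 h arrays, the difference was 0.31 (SD 0.48 over 24 points), against 0.27 (SD 0.72) on the dimmer.

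With EGF in both arms 4 of 6 were called, where 48.6% of all genes were. AREG was lowered less in PC9M2 by 0.66 (SE 0.18, adjusted p 0.00341), HBEGF by 0.58 (SE 0.19, adjusted p 0.0125) and EREG by 0.78 (SE 0.31, adjusted p 0.0409) on the dimmer probe, which was above background on 5 and 2 of 26 arrays of the courses under both agents, and the EGF transcript, which had risen in PC9, differed by -0.28 (SE 0.11, adjusted p 0.0289). On the brighter EREG probe the difference was 0.48 (SE 0.21, adjusted p 0.058), or 0.34 (SD 0.90 over 25 points) without the 0.5 h arrays. With scan day as a random block 1 ligand was called, and 1 also with courses unpaired and with time points 3 h apart. Without the 0.5 h arrays the differences of AREG and HBEGF were 0.51 and 0.43 and still passed, and the dimmer EREG probe did not (0.62, adjusted p 0.0741), with 49.5% of all genes called.

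The drug differences also moved with time, and not alike in the lines. The HBEGF difference from its untreated course grew in both. In PC9 the gefitinib signal went from 9.03 at 0 h to 6.40 at 24 h, and the untreated signal from 11.1 to 10.8. In PC9M2 the gefitinib signal was 6.96 and 7.50 at these points, while the untreated signal went from 8.74 to 10.8. In PC9 the mean HBEGF difference was -1.98 (SD 0.22) from 0.5 to 3 h, -2.63 (SD 0.61) from 4 to 12 h and -4.14 (SD 0.59) from 13 to 24 h. In PC9M2 the same windows gave -1.16 (SD 0.23), -1.66 (SD 0.46) and -2.76 (SD 0.44). The late minus early contrast was -2.17 (SE 0.31, adjusted p 3.46e-06) in PC9 and -1.60 (SE 0.24, adjusted p 1.33e-05) in PC9M2.

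AREG moved apart in PC9, where the windows gave -1.95 (SD 0.09), -2.24 (SD 0.48) and -2.79 (SD 0.31). It came partly back in PC9M2, where they gave -2.20 (SD 0.41), -1.06 (SD 0.36) and -1.54 (SD 0.28). The contrast was -0.84 (SE 0.21, adjusted p 0.00193) in PC9 and +0.66 (SE 0.19, adjusted p 0.0089) in PC9M2. The brighter EREG probe had the same pair of signs, -1.60 (SE 0.28, adjusted p 3.03e-05) in PC9 and +1.31 (SE 0.22, adjusted p 3.75e-05) in PC9M2. Whether these contrasts differ between the lines was not tested. TGFA had no called contrast (-0.08 and 0.21). BTC had one in PC9, 0.71 (SE 0.24, adjusted p 0.0191). Of all tested genes 47.3% had a called contrast in PC9 and 32.9% in PC9M2, against 3 and 2 of the 6 ligands.

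**Figure D2:**
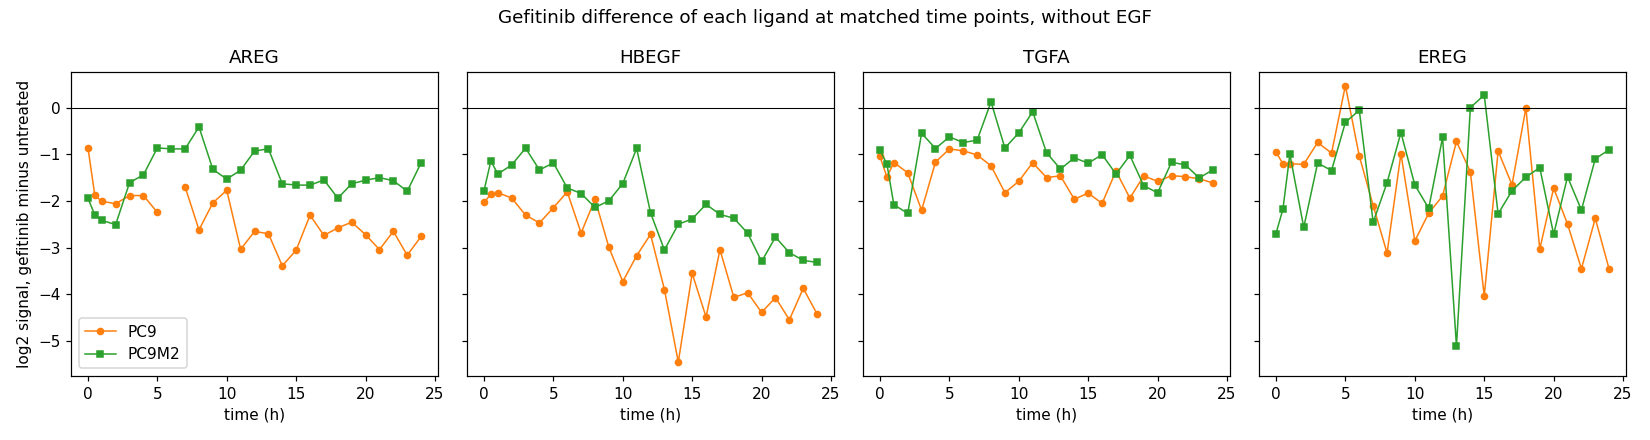
Difference in log2 signal between the gefitinib and the untreated array (vertical axis) at each time in hours, without EGF, for AREG, HBEGF, TGFA and the dimmer EREG probe, with PC9 in orange and PC9M2 in green. The HBEGF difference reached mean values of -4.14 in PC9 and -2.76 in PC9M2 from 13 to 24 h, while the AREG difference of PC9M2 was -2.20 from 0.5 to 3 h and -1.54 from 13 to 24 h.

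The addition of EGF asked the opposite question, whether more ligand at the receptor raises the ligand transcripts. In PC9 without gefitinib 4 of 6 ligands rose, where 11.3% of all tested genes were called higher. AREG was higher by 0.74 (SE 0.05, 1.67-fold, adjusted p 8.53e-10) at 26 of 26 points. EREG was higher by 0.81 (SE 0.20, adjusted p 0.00315), or by 0.37 (SE 0.07, adjusted p 0.000203) on the brighter probe, HBEGF by 0.58 (SE 0.06, adjusted p 1.4e-07, at 25 of 26 points) and TGFA by 0.26 (SE 0.05, adjusted p 0.000238, at 24 of 26 points). These rises are smaller than the falls under gefitinib, and the EGF and untreated courses overlap for each of the 4 genes. The points include 0 h, when EGF was added. On the tested probes the 0 h difference was already 0.44 for AREG, 0.47 for EREG and 0.36 for TGFA, and was -0.22 for HBEGF. How far such an offset enters the course means was not tested.

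In PC9M2 without gefitinib 2 of 6 rose, where 4.16% of all genes did. HBEGF was higher by 0.64 (SE 0.12, 1.56-fold, adjusted p 0.000584) and AREG by 0.43 (SE 0.12, 1.35-fold, adjusted p 0.0225), each at 23 of 26 points. Without the 0.5 h arrays they were higher by 0.73 (SE 0.09) and 0.54 (SE 0.07), and 5.49% of all genes were called higher. TGFA was at 0.20 (SE 0.09, adjusted p 0.221). EREG without the 0.5 h arrays differed by 0.24 (SD 0.32 over 25 points) on the brighter probe and by 0.34 (SD 1.06) on the dimmer. The difference of the EGF effects between the lines was called for 0 of 6 ligands by limma, with 1 (AREG, -0.31, SE 0.11, adjusted p 0.168) at an unadjusted p under 0.05, where 1.34% of all genes were called. It was called for 0 of 6 by limma also without the 0.5 h arrays, with 1 (AREG, -0.22, adjusted p 0.113) at an unadjusted p under 0.05 and 1.37% of all genes called.

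Early on, from 0.5 to 3 h, EGF raised AREG by 0.83 (SE 0.14, adjusted p 0.00219) and HBEGF by 0.70 (SE 0.15, adjusted p 0.0241) in PC9, where 0.370% of all tested genes were called higher. In PC9M2 no ligand was called by limma in this window, nor was any at an unadjusted p under 0.05, with 0.136% of genes called. This result rests on the 0.5 h arrays. Without them HBEGF was higher by 1.31 (SE 0.15, adjusted p 5.46e-05), AREG by 1.02 (SE 0.16, adjusted p 0.00102) and TGFA by 0.88 (SE 0.19, adjusted p 0.0166), where 1.18% of all genes were called higher. The AREG signal in the EGF course of PC9M2 reached its highest value, 11.6, at 2 h.

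With gefitinib present, 0 of 6 ligands were called by limma for EGF in PC9, where 0.0452% of all genes were called higher. AREG, HBEGF and TGFA had differences of 0.19, 0.24 and 0.15, and these 3 had an unadjusted p under 0.05. In PC9M2, too, 0 of 6 were called, with 0.973% of genes called higher and 2 ligands (AREG at -0.35 and HBEGF at -0.22) at an unadjusted p under 0.05. Without the 0.5 h arrays both were called lower with EGF, AREG with a difference of -0.47 (SE 0.07, adjusted p 0.00013) and HBEGF with one of -0.31 (SE 0.06, adjusted p 0.00225), where 4.05% of all genes were called lower. EREG then differed by -0.42 (SD 0.30 over 25 points) on its brighter probe and by 0.06 (SD 0.74) on the dimmer. From 0.5 to 3 h no ligand was called under the drug by limma in either line, with 1 (TGFA in PC9, 0.31, SE 0.13) at an unadjusted p under 0.05, and 0.317% and 0.0151% of all genes called higher in PC9 and PC9M2.

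The EGF effect with the drug minus that without it was called for AREG and HBEGF in both lines. In PC9 AREG differed by -0.54 (SE 0.08, adjusted p 0.00012) and HBEGF by -0.34 (SE 0.10, adjusted p 0.0186), where 13.2% of all genes were called. In PC9M2 AREG differed by -0.78 (SE 0.22, adjusted p 0.0237) and HBEGF by -0.86 (SE 0.20, adjusted p 0.00583), where 10.1% were called. Without the 0.5 h arrays of PC9M2 they differed by -1.01 and -1.04, TGFA was called as well (-0.35, SE 0.07, adjusted p 0.0017), and 15.7% of all genes were called. Also without these arrays, EREG differed by -0.66 (SD 0.36 over 25 points) on the brighter probe and by -0.28 (SD 1.33) on the dimmer. The gefitinib effect in PC9M2 with EGF, without these arrays, was called lower for 38.5% of all genes and for the same 4 ligands as with them.

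**Figure D3:**
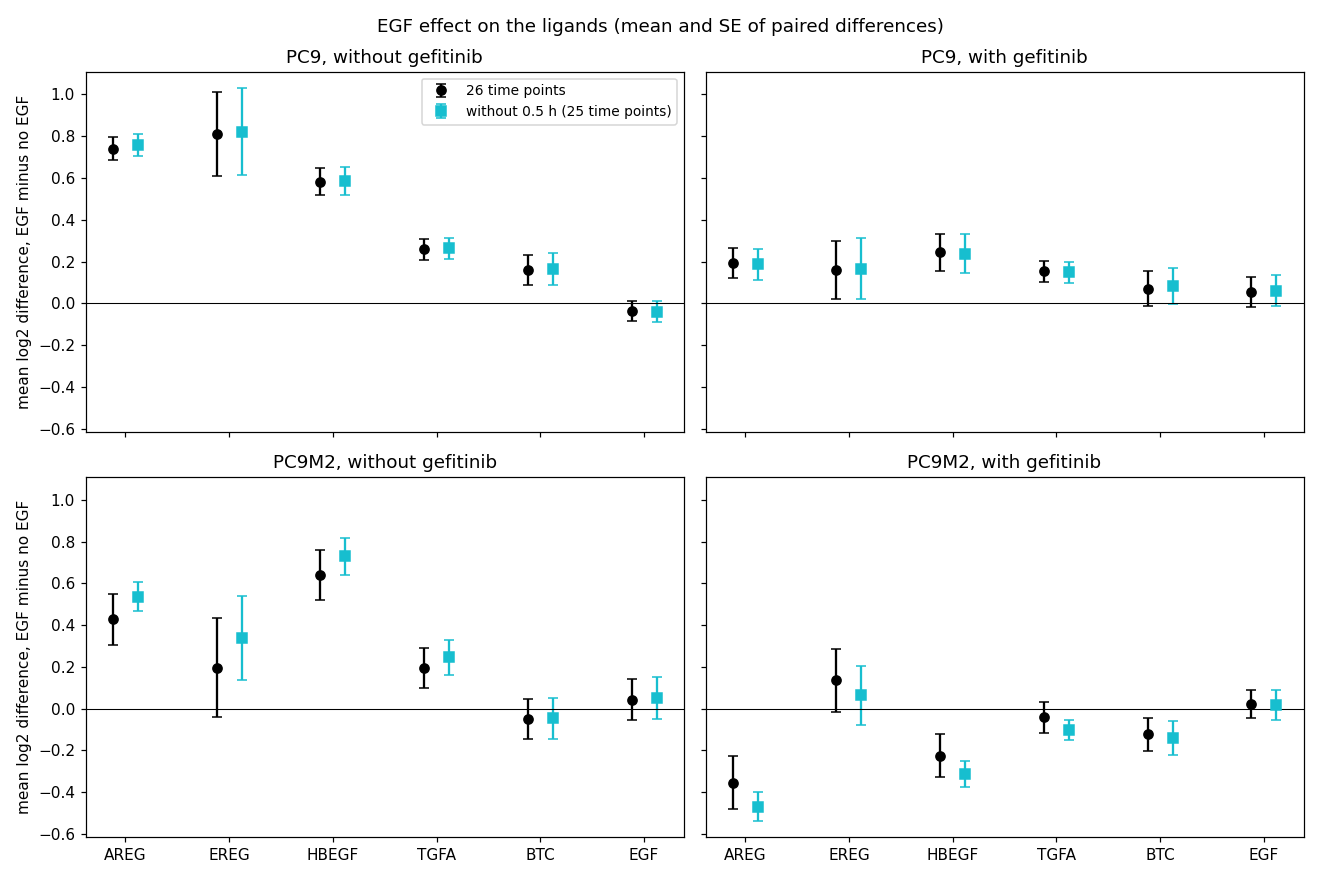
Mean paired log2 difference, EGF minus no EGF (vertical axis), for the 6 tested ligands in each line with and without gefitinib, over 26 time points (black) and without the 0.5 h arrays (blue), with SE bars over time points. AREG in PC9 lies at 0.74 without the drug, and in PC9M2 AREG lies at 0.43 without the drug and at -0.35 with it.

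The lines were then set side by side at matched times, bearing in mind that they were scanned on different days. About the same share of all genes differed in each treatment, 68.1% untreated, 64.7% under gefitinib, 69.8% under EGF and 67.7% under both, so a called ligand is no departure from the other genes. The ligands called were 5, 3, 6 and 4 of 6 in the same order. When the 0.5 h arrays were left out 6 were called under EGF and 4 under both, where 68.9% and 66.7% of all genes were.

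AREG was the 1 ligand called higher in PC9M2 on the tested probes. It was higher by 0.68 (SE 0.09, 1.60-fold, adjusted p 1.47e-07) untreated, at 26 of 26 points, and by 1.58 (SE 0.15, 2.99-fold, adjusted p 5.05e-10) under gefitinib, at 25 of 25. Under EGF it was higher by 0.37 (SE 0.12, adjusted p 0.0081) and under both by 1.03 (SE 0.14, adjusted p 1.04e-07), or by 0.46 (SE 0.09) and 0.97 (SE 0.13) without the 0.5 h arrays. In the order of its mean levels over the 8 courses, the PC9M2 EGF course came first (10.6 ± 0.60, SD over 26 points), with the EGF course of PC9 (10.3 ± 0.41) and the untreated course of PC9M2 (10.2 ± 0.40) within that spread. The untreated course of PC9 (9.53 ± 0.35) and the drug courses of PC9M2 (8.72 ± 0.46 and 8.37 ± 0.60) followed. The drug courses of PC9 came last (7.34 ± 0.56 with EGF and 7.13 ± 0.51 without), more than the spread below those of PC9M2. The order of the courses was the same without the 0.5 h arrays, with the PC9M2 EGF course at 10.7 ± 0.36 (SD over 25 points), now more than the spread above the PC9 EGF course (10.3 ± 0.42), and the PC9M2 course under both at 8.27 ± 0.36.

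EGF was the ligand with the lowest signal in PC9M2 relative to PC9. In untreated PC9 it had a lowest, median and highest signal of 6.33, 7.57 and 8.10, and in PC9M2 of 3.43, 5.30 and 7.07, the last of these on the 11 h array. The difference was -2.11 (SE 0.18, 4.33-fold lower, adjusted p 1.38e-11) untreated, -2.29 under gefitinib, -2.03 under EGF and -2.32 under both (-1.98 and -2.29 without the 0.5 h arrays), lower at 25 of 26 points untreated and at 26 of 26 in the other treatments. In PC9 the transcript was above background on all 26 arrays of each course and in PC9M2 on 19 to 24.

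HBEGF and TGFA were lower in PC9M2 without the drug, and HBEGF was not called with it. HBEGF differed by -0.92 (SE 0.18, adjusted p 5.4e-05) untreated and by -0.87 (SE 0.20, adjusted p 0.000407) under EGF, but by 0.19 (adjusted p 0.526) under gefitinib and -0.28 (adjusted p 0.244) under both. TGFA differed by -0.73 (SE 0.16, adjusted p 0.000242), -0.79 (SE 0.16), -0.34 (adjusted p 0.147) and -0.53 (SE 0.21, adjusted p 0.0261) in that order. Under EGF the HBEGF and TGFA differences were -0.71 (SE 0.15) and -0.71 (SE 0.15) without the 0.5 h arrays.

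The BTC probes disagreed between the lines. On the dimmer probe BTC was lower in PC9M2 by 0.59 to 1.12 log2 units in the 4 treatments (-0.88 untreated, SE 0.12, adjusted p 2.1e-07). The brighter probe was above background on all arrays. On it BTC was called higher in PC9M2 under gefitinib (0.21, SE 0.06, adjusted p 0.00639). The differences on it were -0.07 untreated, -0.20 under EGF and 0.03 (adjusted p 0.651) under both. The EREG probes disagreed as well. The dimmer probe gave a called difference under EGF (-0.52, SE 0.19, adjusted p 0.0187, or -0.43 and 0.0371 without the 0.5 h arrays) and in no other treatment, and the brighter gave 0.09 there and higher values in PC9M2 untreated (0.32, adjusted p 0.0151), under gefitinib (0.98, adjusted p 0.000102) and under both (0.57, adjusted p 0.00215). Without the 0.5 h arrays the brighter gave 0.18 (SD 0.65 over 25 points) under EGF and 0.52 (SD 0.82) under both.

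**Figure D4:**
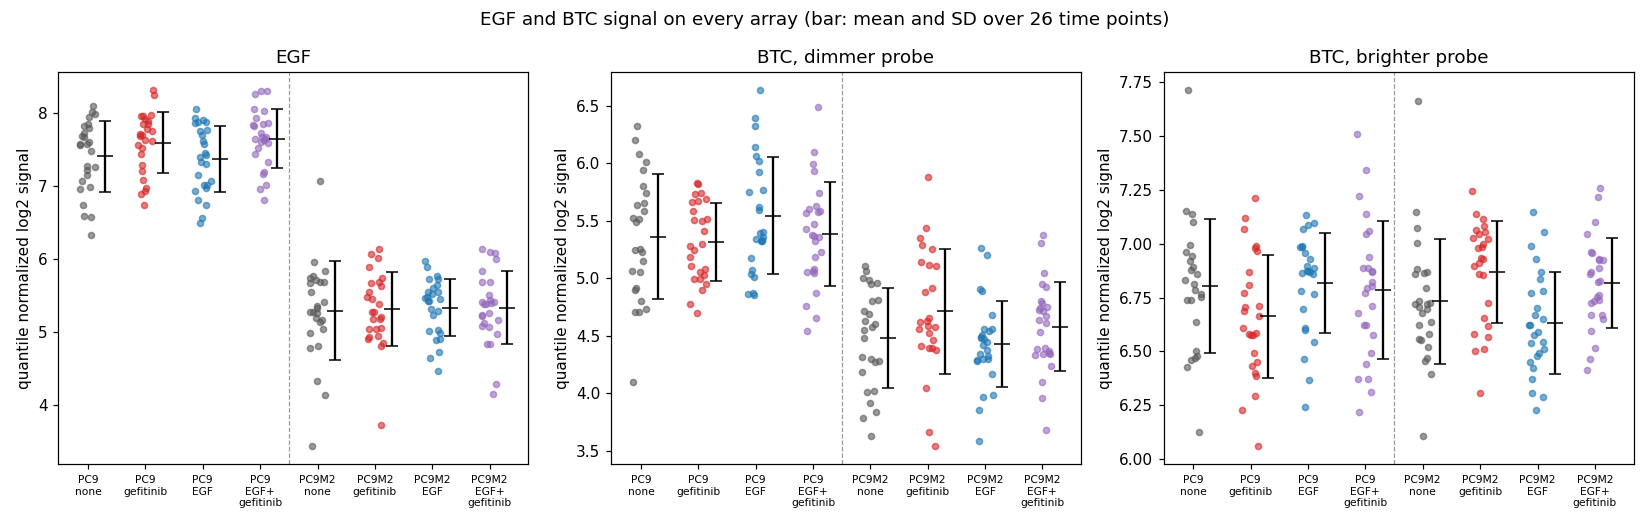
Quantile normalized log2 signal (vertical axis) of EGF and of both BTC probes on every array of the 8 courses, 1 point per array, with the mean and SD over time points as bars and a dashed line between PC9 and PC9M2. EGF lies near 7.41 in untreated PC9 and 5.30 in untreated PC9M2. The untreated lines separate on the dimmer BTC probe (5.36 and 4.48) but not on the brighter (6.80 and 6.73).

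Within the courses the ligands were not flat. Change over time was tested with a smooth curve of 4 degrees of freedom, which was called for 5 of 6 ligands in untreated PC9 and for 6 of 6 under gefitinib, EGF and both, where 66.5%, 77.8%, 78.8% and 83.1% of all genes were called. In PC9M2 it was called for 2, 2, 2 and 3 of 6, where 67.5%, 63.7%, 74.9% and 67.6% were. HBEGF was called in all 8 courses. In untreated PC9M2 it went from 7.53 at 3 h to 10.8 at 24 h, and in PC9 under gefitinib from 9.03 at 0 h to a lowest value of 4.08 at 14 h, a single array well below its neighbours. These counts depend on scan day. With scan day as a random block, 3 ligands were called in untreated PC9, 3 in PC9 under both, 0 in PC9M2 under gefitinib and 0 under both. Leaving out the 0.5 h arrays gave 3 in untreated PC9 and 3 in PC9M2 under EGF.

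The levels of several ligands in PC9M2 had a step between days. Between 9 and 10 h the TGFA signal went up on all 4 courses at once, by 1.53 untreated, 1.85 under gefitinib, 1.77 under EGF and 1.75 under both, to levels of 9.58, 9.04, 9.85 and 8.81. Over the same hour the EGF transcript went up by 0.90, 1.25, 1.25 and 0.93 in that order of courses, the brighter EREG probe by 0.91, 1.31, 0.79 and 1.63, and AREG by 0.52, 0.32, 0.48 and 0.73, and both BTC probes went up on all 4 courses too. The arrays of 9 h and 10 h were scanned on different days, since each scan day held neighbouring time points of a line, so that such a step and a change of scan day cannot be told apart. In PC9, where the scan day changed between the same points, the TGFA signal dropped by 0.85, 0.60, 0.59 and 0.43 on the 4 courses. The treatment differences, taken within a slide, are made between arrays of the same scan day.

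EPGN (epigen) and NRG1 (neuregulin 1) gave too little signal to follow, and NRG2 (neuregulin 2) could be followed on 1 of its probes. EPGN was above background on 5 arrays, and no course had more than 1 of these. NRG1 was above background on 9 arrays by the most variable of its 4 probes. NRG2 was above background on 9 arrays by its more variable probe. The other NRG2 probe was brighter, with course medians between 4.33 and 5.12. It was above background on 139 arrays, from 10 of 26 in PC9 under EGF to 24 of 26 in PC9 under both, and on it the signal was higher with gefitinib by 0.81 (SE 0.20, adjusted p 0.000646) in PC9 with EGF. In PC9 without EGF it differed by 0.27 (adjusted p 0.16), and in PC9M2 by -0.04 (adjusted p 0.896) without EGF and -0.05 (adjusted p 0.823) with it. With EGF in both arms the drug difference of PC9M2 minus that of PC9 was -0.86 (SE 0.19, adjusted p 0.000548). Between the lines this probe was higher in PC9M2 under EGF by 0.58 (SE 0.15, adjusted p 0.000918) and was not called in the other 3 treatments.

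Of the 4 receptors, 2 were higher and 1 lower under gefitinib in PC9, and 3 were higher in PC9M2, where the share of all genes called in either direction was 72.2% and 66.5%. ERBB2, which binds no ligand and pairs with the other receptors, was higher by 1.98 (SE 0.17, adjusted p 3.38e-11) in PC9 and by 1.11 (SE 0.12, adjusted p 2.26e-09) in PC9M2 without EGF. ERBB3, the receptor of neuregulins, was higher by 1.87 (SE 0.12) in PC9 and by 1.68 (SE 0.11) in PC9M2. EGFR itself was lower in PC9 (difference -0.25, SE 0.06, adjusted p 0.000283) and not called in PC9M2 (0.08, adjusted p 0.284), where ERBB4 was higher by 0.75 (SE 0.19, adjusted p 0.000972) and was above background on 15 of 26 untreated and 23 of 26 treated arrays. The median of the 4 receptors was 1.1 in PC9 and 0.93 in PC9M2, beside -0.03 and -0.01 over all genes. Between the untreated lines EGFR was lower (-0.83, SE 0.06), ERBB3 lower (-0.67, SE 0.11) and ERBB2 higher (1.48, SE 0.13) in PC9M2.

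Of 13 genes known to be induced by ERK, 13 were lower with gefitinib in PC9 and 11 in PC9M2 without EGF, where 37.4% and 34.0% of all genes were, with medians of -3.58 and -1.01. DUSP6 differed by -6.81 (SE 0.27) in PC9 and by -2.16 (SE 0.21) in PC9M2. FOSL1, a subunit of AP-1, differed by -4.36 (SE 0.23) and -2.77 (SE 0.13), although under gefitinib it was above background on only 10 of 26 arrays in PC9 and 22 in PC9M2, so that part of the treated values lie at the background. EGR1, an immediate early transcription factor, differed by -3.79 (SE 0.18) in PC9 and was at 0.59 (adjusted p 0.0909) in PC9M2.

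Of 9 inhibitors of the ERBB receptors, 7 were lower and 1 higher with gefitinib in each line without EGF, beside the 37.4% and 34.0% of all genes called lower, with medians of -0.87 and -0.32. ERRFI1, which blocks the receptor kinase, differed by -2.10 (SE 0.14) in PC9 and by -1.18 (SE 0.09) in PC9M2, and CBLB, a ubiquitin ligase, was the higher member (0.81 and 0.98). Of 11 tested genes of ligand release, 4 were higher and 4 lower in PC9, and 6 and 3 in PC9M2, beside the same 72.2% and 66.5% of all genes, with medians of 0.07 and 0.27. ADAM17, the protease that frees AREG, TGFA and HBEGF, differed by -0.30 (SE 0.06) and -0.25 (SE 0.05), ADAM10 was higher by 0.71 (SE 0.10) and 0.67 (SE 0.08), and ADAM19 differed by -3.06 (SE 0.26) and -1.74 (SE 0.11). NRG4, a further neuregulin, was above background on 7 of 26 untreated arrays in PC9 and on 16 of 26 in PC9M2.

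Over all arrays, which share treatments and slides and are not independent, HBEGF and TGFA were the pair of ligands most alike (r = 0.82), and AREG went with HBEGF at r = 0.77. With each course centred on its own mean these were 0.50 and 0.33, and EGF and TGFA were then the pair most alike (r = 0.72, against 0.42 uncentred). The gene most like AREG over all arrays was CCNE1 (cyclin E1, r = 0.94), and those most like HBEGF, TGFA and EGF were YRDC (r = 0.93), PTP4A1 (r = 0.91) and OLR1 (r = 0.94). These are descriptions of likeness over the arrays of the 8 courses, with no test.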

How the data were processed

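Human PC9 and PC9M2 cells were profiled on single-colour arrays (26 in each of 8 courses) of 45015 features. Per the file headers, the authors extracted the spot intensity with Feature Extraction 10.5.1.1, on a design annotated to hg18. The deposited series table holds quantile normalized signal on the linear scale, which the quantile normalized intensity matched within a relative difference of 0.0014. The labels misspell gefitinib, and write PC9GRM2 for PC9M2. The processed intensity was quantile normalized over all features and arrays, raised to a floor of 1 and taken to log2 values. Values of spots marked as outliers (0.0793%) were removed. Accessions of 24794 of 41000 probes matched a RefSeq symbol, and a gene was read from its most variable probe. A gene was tested if well above background on at least 13 of 26 arrays in a course. Features above background numbered 24464 to 35938 per array. Saturated features numbered 183 to 1616 per array in PC9 and 0 in PC9M2, and no ligand spot was saturated. The number of arrays limits the precision.

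Differences between courses at matched time points were tested with the two-sided moderated test of limma 3.58.1 in R 4.3.3, with p-values adjusted over all tested genes by Benjamini-Hochberg and a threshold of 0.05. A spline served for change over time. The tests were tried on simulated data. The pairing by time point comes from the labels and is also that of slides. Named genes are the 9 members, the genes of the lists fixed with them (receptors, ligand release, inhibitors, ERK-induced genes and cell type markers) and the genes most like each tested member. The members and lists were chosen with earlier results of these data known. Alternatives were 75th percentile scaling, normexp background correction (on the median signal), other probe rules, floors and filters, unpaired courses, time points 3 h apart, autocorrelation and scan day, and, chosen after seeing the data, leaving out the 0.5, 11 or 16 h arrays. No value from the study's supplementary material was used.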

Additional observations from a re-analysis of the deposited data

Results flagged for a closer look

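The gefitinib difference of 7 ligand comparisons differed between the lines by the test of the difference (PC9M2 minus PC9). Without EGF these were AREG (0.89), HBEGF (1.11) and TGFA (0.40). With EGF they were AREG (0.66), HBEGF (0.58), EREG (0.78) and the EGF transcript (-0.28). The EREG value is that of the dimmer probe, which was mostly at background under the drug. The brighter probe gave 0.48 (adjusted p 0.058), and without the 0.5 h arrays the dimmer gave 0.62 (adjusted p 0.0741).

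The EGF difference of AREG and HBEGF differed with and without the drug, by -0.54 and -0.34 in PC9 and by -0.78 and -0.86 in PC9M2.

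The gefitinib difference without EGF differed between 13 to 24 h and 0.5 to 3 h for AREG (-0.84), HBEGF (-2.17) and BTC (0.71) in PC9, and for AREG (0.66) and HBEGF (-1.60) in PC9M2. The causes were not tested.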

How the results depend on the processing

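The time points of a course are neighbours, 1 culture stands behind each array, and no replicate culture was measured. Of 479 counts of called ligands recomputed under 20 alternatives, 429 stayed within 1.5 times the reported count. Of 2812 values of single ligands, 2601 stayed called in the same direction or stayed uncalled, whatever their sign. A further 128 lost and 76 gained a call, and 7 that were called before or after the change reversed. The gefitinib counts in the lines kept within that limit under every alternative run.

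No replicate block (courses unpaired): the EGF effect called 2 ligands in PC9 and 0 in PC9M2 without gefitinib, the difference of gefitinib effects with EGF 1, and the difference of EGF effects with and without the drug 0 in PC9 and 0 in PC9M2. With time points 3 h apart these were 1, 0, 1, 0 and 1, the EGF effect in PC9M2 with gefitinib called 2 and the lines under EGF 3. With the variance inflated for autocorrelation the EGF effect in PC9M2 called 1, the untreated lines 3, the difference of gefitinib effects with EGF 2 and the difference of EGF effects in PC9M2 0. Tested one-sided for higher in PC9M2, 1 ligand (AREG) was called in each of the 4 treatments. With scan day as a random block, 1 ligand was called for the difference of gefitinib effects with EGF, and change over time was called for 3 in untreated PC9, 3 in PC9 under both, 0 in PC9M2 under gefitinib, 1 under EGF and 0 under both.

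With the probe of the highest mean, the difference of gefitinib effects without EGF called 5, that of EGF effects in PC9 4, late minus early in PC9M2 5, and change over time 5 in untreated PC9M2 and 4 under gefitinib. With normexp these last 3 were 5, 4 and 4. With a floor of 16, late minus early called 5 in PC9 and 4 in PC9M2, and change over time 4 in untreated PC9M2. With outlying points replaced by a spline, the EGF effect in PC9M2 with gefitinib called 2, early EGF in PC9M2 3, late minus early in PC9M2 4 and change over time in untreated PC9M2 4. Early EGF in PC9 called 1 with the mean of all probes and 0 in a window of 0.5 to 2 h. Change over time in PC9M2 under gefitinib called 1 with 75th percentile scaling, 1 with no filter, 1 with the filter on all 26 arrays and 1 without the 16 h arrays. Without the 0.5 h arrays the EGF effect in PC9M2 with gefitinib called 2, early EGF in PC9M2 3, and change over time in untreated PC9 3.

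The reversed values were EGF under gefitinib in PC9M2 with EGF with 75th percentile scaling (0.20), BTC between the lines under gefitinib with normexp (0.0609) and the probe of the highest mean (0.21) and under both with that probe (0.0348), and EREG between the lines under EGF with normexp (0.0325), that probe (0.0922) and the floor of 16 (0.0922). The probe rules change which probe is read, and the other causes were not tested. The methods' t-test, adjusted by Benjamini-Hochberg, kept each count of called ligands within 1.5 times.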
